A study of Rattus norvegicus with 4 samples.

Results

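The 9 genes described here are p53 targets and growth arrest genes of rat liver: Cdkn1a, Mdm2, Gadd45a, Gadd45g, Ccng1, Phlda3, Btg2, Zmat3 and Bax. They were chosen by name from known p53 biology, with earlier results of these data known, and make up 9 of the 16999 named genes analysed. Each symbol had 1 entry in the sevoflurane 0 h table, the one in which entries were counted. RNA was sequenced from livers of wild type rats, with 1 library for each of 4 groups, namely 0 h and 6 h of sevoflurane and 0 h and 6 h of desflurane. Sevoflurane and desflurane are fluorinated ethers that are inhaled for general anesthesia, given here at 4.5% and 6%, respectively. The 0 h animals, which served as controls, were decapitated once consciousness was lost, so they too had inhaled the agent, and the 6 h animals after 6 h of anesthesia. Control and anesthetized livers were collected 6 h apart, so the duration of anesthesia and the hour of the day cannot be told apart in any change between 0 h and 6 h.

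The transcription factor p53 is stabilized when DNA is damaged or a cell is stressed, and it then turns on genes that stop the cell cycle, repair DNA or lead to cell death. Mdm2, itself a target, marks p53 for degradation and so closes a feedback loop. Several of these genes also answer to other signals. In liver, Cdkn1a and the Gadd45 and Btg families are known to respond to fasting, to hormones, to injury and to the circadian clock through factors other than p53.

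Values are transcript levels corrected for transcript length and scaled to the library total (TPM). A change is the difference of log2(TPM + 1) between 2 libraries, which understates the change of low genes. With 1 library a group there was no replicate check of any single comparison. A gene was said to rise or fall only where the larger TPM was above 2 and the ratio of the TPM values was above 2. Apart from this rule of size, which carries no p-value, the change shared by both agents was tested with limma over all genes of mean TPM of at least 2, the 2 agents standing as repeats of each other.

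Gadd45a rose with both agents, Mdm2 rose with sevoflurane, and Cdkn1a and Btg2 rose with desflurane. None of the 9 genes fell past the rule with either agent. With sevoflurane, 2 of the 8 members that exceeded a TPM of 2 in either library rose, where 5.04% of the 8270 genes above that minimum did, and 0 fell, where 3.71% of genes did. With desflurane, 3 of 8 rose and 0 fell, where 4.1% of 8372 genes rose and 5.55% fell. Over the 8 members whose TPM averaged at least 1, the median change was −0.08 with sevoflurane and 0.62 with desflurane. Over all 9201 genes of that level the medians were 0.05 and −0.10.

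**Figure D1:**
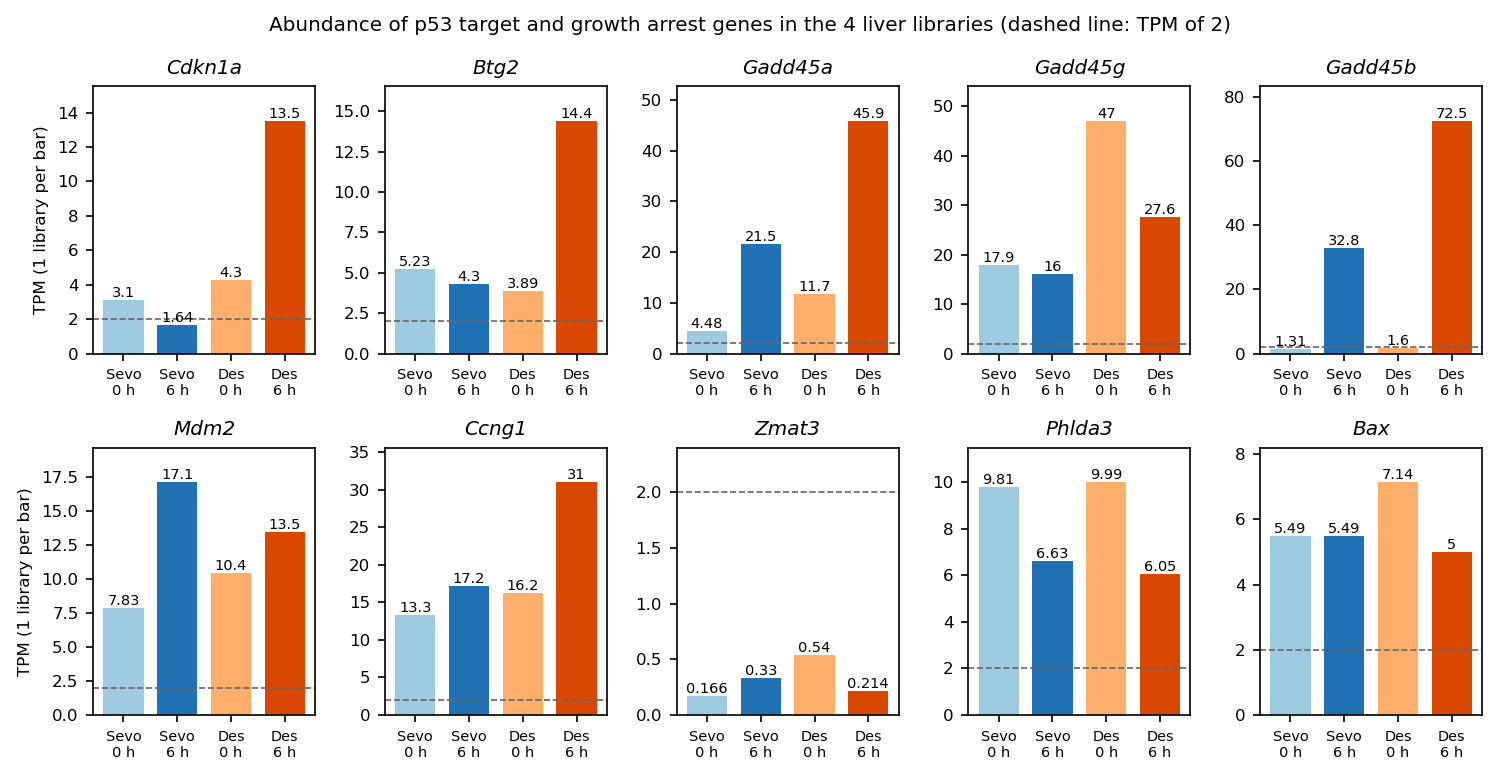
Bars show TPM, 1 library per bar, for the 9 genes and for Gadd45b, the remaining member of the Gadd45 family, in livers taken at 0 h (pale) and 6 h (dark) of sevoflurane (blue) or desflurane (orange), and the dashed line marks a TPM of 2. Gadd45a is higher at 6 h with both agents, Cdkn1a and Btg2 stand highest in the desflurane 6 h library at 13.5 and 14.4, and Zmat3 stays below 1 in all 4 libraries.

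Cdkn1a encodes p21, an inhibitor of cyclin-dependent kinases and the best known arrest gene downstream of p53. It lies on chromosome 20, from 6348422 to 6358864 on the plus strand (rn6). Its TPM was 3.10 in sevoflurane 0 h, 1.64 in sevoflurane 6 h, 4.30 in desflurane 0 h and 13.5 in desflurane 6 h. The 2 controls differed 1.39-fold, while the sevoflurane 6 h library was the lowest of the 4 and the desflurane 6 h library the highest. With desflurane the level rose 3.15-fold, a change of 1.45, rank 139 of 9201 genes ordered from the largest rise. With sevoflurane it was 1.89-fold lower, a change of −0.64 that did not pass the rule, and rank 541 of 9201 from the other end. The 6 h libraries differed 8.25-fold, rank 2 of 9201 in that comparison. These TPM values rest on mean depths of 7.31, 5.61, 14.8 and 49.2 reads per base, so the low sevoflurane 6 h value is also the one with the thinnest coverage. The transcript that was assembled from the reads began 3047 bases inside the named span in all 4 libraries. Its TPM was 3.12, 2.01, 4.38 and 15.0, with the same order as the named gene.

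Btg2, an antiproliferative gene of the BTG/Tob family, also rose with desflurane and not with sevoflurane. It lies on chromosome 13, from 50913185 to 50916944 on the minus strand (rn6). Its TPM was 5.23 in sevoflurane 0 h, 4.30 in sevoflurane 6 h, 3.89 in desflurane 0 h and 14.4 in desflurane 6 h. The other 3 libraries lay close together and the desflurane 6 h library stood above them. The rise with desflurane was 3.70-fold, a change of 1.65 and rank 106 of 9201. With sevoflurane the level was 1.22-fold lower, a change of −0.23. The 6 h libraries differed 3.35-fold.

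The upstream sequences of these 2 genes are shown because each holds a short element that few rat promoters hold. They come from RefSeq (GRCr8), run 5′ to 3′ on the strand of the gene and end at the base before the first annotated start. For Cdkn1a (chr20:7150682-7150819, plus strand) the capitals mark a p53 full site, which is a pair of p53 half-sites with no spacer and at most 1 mismatch in all. It begins 201 bases before the transcript start that the RefSeq table uses and 89 bases before the outermost start annotated for the gene. The Cdkn1a transcript assembled from the reads began 3047 bases inside the named span (rn6). The site is thus near annotated starts and is not shown to lie next to the start of the measured transcript. For Btg2 (chr13:48087691-48087940, minus strand) the capitals mark a cyclic AMP response element (CRE), TGACGTCA, 201 bases before the start.
Cdkn1a: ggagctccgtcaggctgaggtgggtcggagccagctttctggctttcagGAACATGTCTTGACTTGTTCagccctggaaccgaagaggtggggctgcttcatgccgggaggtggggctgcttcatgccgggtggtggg
Btg2: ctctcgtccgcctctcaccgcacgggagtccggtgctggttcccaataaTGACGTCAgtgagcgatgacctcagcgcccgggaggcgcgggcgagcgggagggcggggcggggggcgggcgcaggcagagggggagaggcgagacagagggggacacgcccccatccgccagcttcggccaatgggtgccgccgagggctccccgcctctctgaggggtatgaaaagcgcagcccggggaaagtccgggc

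In the 250 bases before the start, on either strand, the p53 full site was found in 20 of 33469 rat promoters (0.0598%) and the CRE in 1.59%. Of the 9 genes, 7 were matched in the promoter table, all but Zmat3 and Bax. Cdkn1a and Ccng1 were the 2 members with a p53 full site, and Btg2 was the member with a CRE. The p53 half-site, the E-box (CACGTG), a FoxO element (TGTTTAC) and the CCAAT box were also searched. Mdm2, Gadd45a, Gadd45g, Ccng1 and Btg2 held a CCAAT box, as 34.0% of promoters did. The members were chosen from known p53 biology, so p53 sites among them are not an independent result. A match describes letters in this window and not binding in these livers.

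Gadd45a encodes a small stress protein that slows the cell cycle at the G2/M boundary and takes part in DNA repair and demethylation. It lies on chromosome 4, from 97782512 to 97784814 on the minus strand (rn6). Its TPM was 4.48 in sevoflurane 0 h, 21.5 in sevoflurane 6 h, 11.7 in desflurane 0 h and 45.9 in desflurane 6 h. Both 6 h libraries were above both controls. The rise was 4.80-fold with sevoflurane (change 2.04, rank 59 of 9201) and 3.94-fold with desflurane (change 1.89, rank 80). The controls themselves differed 2.60-fold and the 6 h libraries 2.13-fold, desflurane being higher both times. The 2 pairs of libraries thus differed in level and hardly in change (a difference of −0.15). With 1 library a group, that gap in level cannot be told apart from a difference between single libraries. Gadd45a was the 1 of 8 members tested that passed limma, with a shared change of 1.96 ± 0.19 (SE, 95% interval 1.56 to 2.37, adjusted p = 2.8e-05, Benjamini-Hochberg), higher in 2 of 2 agents. In the same test 376 of 8024 genes (4.69%) were called higher.

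Its upstream sequence from RefSeq (GRCr8, chr4:97486800-97487049, minus strand) is given because Gadd45a was the member that rose with both agents. The capitals mark a p53 half-site beginning 48 bases before the start, an element found in 6.64% of the rat promoters. No full site, CRE or E-box (CACGTG, in 5.59% of promoters) was in this window.
Gadd45a: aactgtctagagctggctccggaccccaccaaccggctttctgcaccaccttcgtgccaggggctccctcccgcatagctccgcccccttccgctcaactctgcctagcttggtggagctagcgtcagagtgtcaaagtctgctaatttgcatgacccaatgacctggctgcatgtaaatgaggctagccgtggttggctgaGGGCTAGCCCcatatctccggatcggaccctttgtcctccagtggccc

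Of the other Gadd45 genes, Gadd45b rose with both agents and Gadd45g with neither. Gadd45g, which encodes a close relative (chromosome 17, from 13391474 to 13393219 on the minus strand), had a TPM of 17.9 in sevoflurane 0 h, 16.0 in sevoflurane 6 h, 47.0 in desflurane 0 h and 27.6 in desflurane 6 h. Its desflurane control stood above the other 3 libraries, 2.63-fold higher than the sevoflurane control and past the rule. The changes were −0.15 with sevoflurane and −0.75 with desflurane, neither past the rule, and limma gave a shared change of −0.45 ± 0.19 (SE, adjusted p = 0.203). Gadd45b, the family member outside the 9 genes (chromosome 7, from 11646283 to 11648312 on the minus strand), went from 1.31 to 32.8 TPM under sevoflurane and from 1.60 to 72.5 under desflurane. Its rises of 25.0-fold and 45.4-fold ranked 10 and 5 among the 9201 genes. From the assembled loci, of which 2 lay over the gene at 3.03 TPM in sevoflurane 0 h, the rise with sevoflurane was 10.8-fold. The shared change of Gadd45b was 4.35 ± 0.25 (SE, adjusted p = 3.55e-07 by limma). The family thus covered a large rise, a smaller rise and no rise past the rule in the same livers, and Gadd45b and Gadd45g both hold an E-box in the 250 bases before their starts.

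Mdm2, the ubiquitin ligase that keeps p53 low, lies on chromosome 7, from 60719066 to 60743328 on the minus strand (rn6). Its TPM was 7.83 in sevoflurane 0 h, 17.1 in sevoflurane 6 h, 10.4 in desflurane 0 h and 13.5 in desflurane 6 h. Both 6 h libraries were above both controls, with sevoflurane the higher. The rise of 2.18-fold with sevoflurane (change 1.04) passed the rule and the 1.29-fold difference with desflurane (change 0.34) did not. The shared change was 0.69 ± 0.22 (SE) and missed the threshold (adjusted p = 0.0871 by limma). Whether the agents differed could not be tested with 1 library a group, and the difference of −0.70 between the changes is given as a value. Mdm2 held a FoxO element (TGTTTAC, in 3.21% of promoters) in the same window before its start.

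Ccng1 encodes cyclin G1, a p53 target that recruits a phosphatase to Mdm2, and lies on chromosome 10, from 25903925 to 25910298 on the minus strand (rn6). Its TPM was 13.3 in sevoflurane 0 h, 17.2 in sevoflurane 6 h, 16.2 in desflurane 0 h and 31.0 in desflurane 6 h. The desflurane 6 h library stood apart from the other 3. The 1.91-fold difference with desflurane (change 0.89) fell just short of the rule, though it passed with median-of-ratios scaling. The difference with sevoflurane was 1.30-fold (change 0.35). The shared change of 0.62 ± 0.20 (SE) missed the threshold (adjusted p = 0.0779 by limma). Its upstream sequence (RefSeq, GRCr8, chr10:25684877-25685126, minus strand) is given because it holds the other p53 full site among the members, in capitals, beginning 242 bases before the start.
Ccng1: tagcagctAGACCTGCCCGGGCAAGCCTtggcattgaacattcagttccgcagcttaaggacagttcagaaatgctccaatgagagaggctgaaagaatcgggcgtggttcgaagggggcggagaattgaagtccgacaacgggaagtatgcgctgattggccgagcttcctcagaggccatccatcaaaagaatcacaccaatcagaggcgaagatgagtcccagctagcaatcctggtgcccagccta

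The remaining targets did not rise past the rule. Phlda3, a p53 target that restrains the kinase Akt, lies on chromosome 13, from 52588917 to 52592002 on the plus strand (rn6). Its TPM was 9.81 in sevoflurane 0 h, 6.63 in sevoflurane 6 h, 9.99 in desflurane 0 h and 6.05 in desflurane 6 h. The controls were within 1.02-fold of each other and both 6 h libraries lay below them, by 1.48-fold and 1.65-fold. That is short of the rule, and the shared change of −0.57 ± 0.21 (SE) was not called (adjusted p = 0.147 by limma).

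Bax, which opens the mitochondrial outer membrane in apoptosis, lies on chromosome 1, from 101451801 to 101457208 on the minus strand (rn6). Its TPM was 5.49 in sevoflurane 0 h, 5.49 in sevoflurane 6 h, 7.14 in desflurane 0 h and 5.0 in desflurane 6 h. The level was thus equal at both times of sevoflurane and 1.43-fold lower with desflurane, a change of −0.44. Limma gave a shared change of −0.22 ± 0.23 (SE, adjusted p = 0.691), with an interval of −0.73 to 0.29 that holds changes in either direction. Zmat3, an RNA-binding p53 target (chromosome 2, from 118715229 to 118746109 on the minus strand), was at 0.17, 0.33, 0.54 and 0.21 TPM in the same order. Its depth was at most 1.86 reads per base, it never reached a TPM of 2, and no fold change is given.

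Among the 9 genes, those that differed most between the agents were Cdkn1a and Btg2. In the plot of the changes with the 2 agents they lie to the upper left, while Gadd45a lies near the diagonal and Gadd45b above it. The difference between the changes (desflurane minus sevoflurane) was 2.09 for Cdkn1a, 1.89 for Btg2 and 0.54 for Ccng1. It was −0.70 for Mdm2, −0.60 for Gadd45g, −0.44 for Bax, −0.15 for Gadd45a and −0.14 for Phlda3. For Zmat3, below a TPM of 1 throughout, it was −0.53, and for Gadd45b, outside the 9 genes, 0.95. None of these differences was tested, since each change rests on 1 pair of libraries, and the agents were inhaled at different concentrations. In the shared test Cdkn1a and Btg2 had wide errors, with 0.41 ± 0.38 and 0.71 ± 0.35, respectively (SE, adjusted p = 0.646 and 0.295 by limma). Between the 6 h libraries 3 of 8 members rose in desflurane over sevoflurane (Cdkn1a, Gadd45a and Btg2), where 3.99% of genes differed in either direction.

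**Figure D2:**
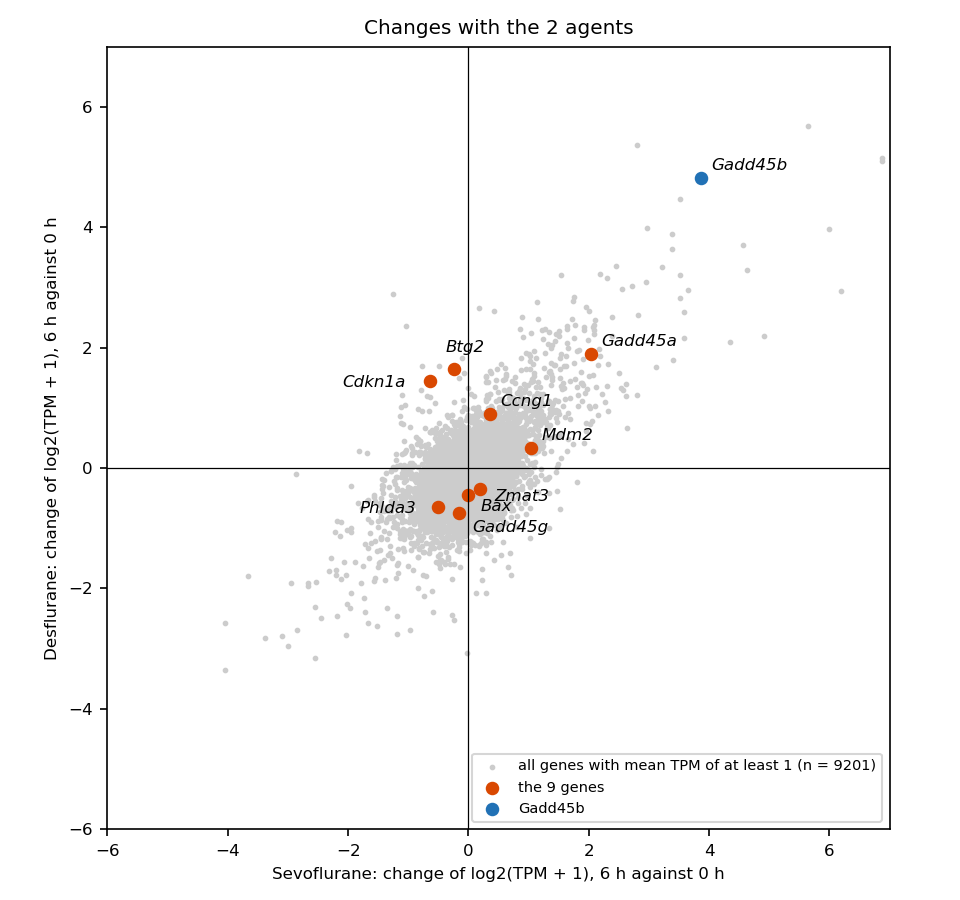
Each point is a gene, with the change of log2(TPM + 1) from 0 h to 6 h of sevoflurane on the horizontal axis and of desflurane on the vertical axis; grey points are the 9201 genes with mean TPM of at least 1, orange points the 9 genes and the blue point Gadd45b. Gadd45a lies at 2.04 and 1.89, Gadd45b at 3.87 and 4.82, and Cdkn1a (−0.64 and 1.45) and Btg2 (−0.23 and 1.65) lie left of 0 and above it.

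The 2 controls gave a measure of how far a pair of libraries differs with little time under the agent. Between them 2 of 8 members passed the rule, Gadd45a and Gadd45g, both higher in desflurane 0 h, where 2.76% of 8263 genes passed in either direction. Each 6 h library was therefore also set against the control of the other agent. Against the desflurane control, neither Gadd45a (1.85-fold) nor Mdm2 (1.64-fold) rose past the rule in sevoflurane 6 h, while Cdkn1a was 2.62-fold and Gadd45g 2.94-fold lower and passed it. Against the sevoflurane control, desflurane 6 h kept its rises of Cdkn1a (4.36-fold), Gadd45a (10.2-fold) and Btg2 (2.75-fold), and Ccng1 passed as well (2.34-fold). The desflurane calls for Cdkn1a, Gadd45a and Btg2 were thus met with either control, and the sevoflurane calls were met with 1 of the 2.

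**Figure D3:**
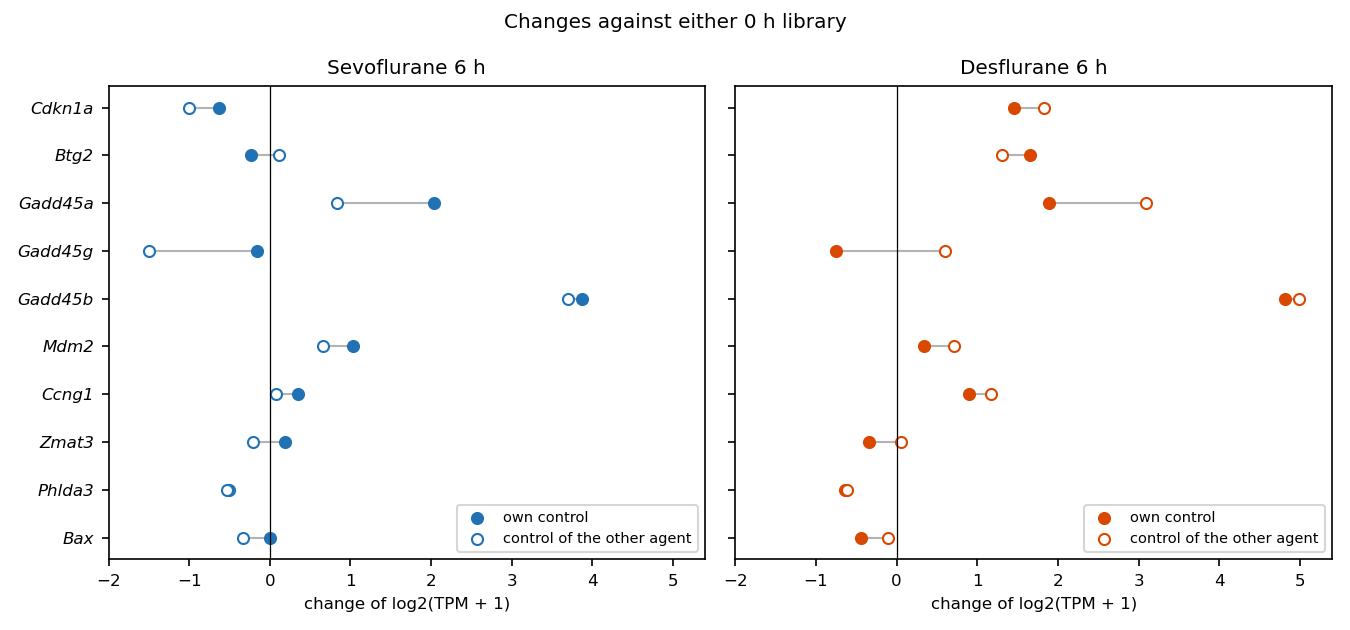
Change of log2(TPM + 1) of each 6 h library against the control of its own agent (filled) and of the other agent (open), for sevoflurane (left) and desflurane (right). For Gadd45a in sevoflurane 6 h the points are far apart, and for Cdkn1a and Btg2 in desflurane 6 h both lie well above 0.

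The wider pathway was read from lists of named genes, whose counts are given over the genes above the TPM minimum and can be read against the shares of all genes above (5.04% higher and 3.71% lower with sevoflurane, 4.1% and 5.55% with desflurane). Of the genes for p53 and its regulators, 13 had a mean TPM of at least 1, and their median change was 0.01 with sevoflurane and −0.07 with desflurane. Of the 10 above the minimum, 0 rose with either agent. The 1 that fell was Hipk2, a kinase that phosphorylates p53, with desflurane (2.65 to 1.21 TPM).

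Of the other p53 targets, 22 were used, with medians of −0.09 and 0.06. With sevoflurane 3 of 19 rose and 1 fell, and with desflurane 4 of 19 rose and 1 fell. The targets that rose with both agents were Tp53i13, Tp53inp1 and Plk3. Tp53i13 had TPM values of 6.88, 28.8, 7.14 and 39.1 in the order of the groups above. Tp53inp1, a stress protein that acts in autophagy and with p53, had 12.9, 37.0, 17.0 and 83.1, and Plk3, a polo-like kinase, had 0.86, 5.19, 1.04 and 13.0. Their shared changes were 2.11, 1.84 and 2.26 (adjusted p = 1.96e-05, 7.03e-05 and 0.000213 by limma). Gdf15, a stress-induced cytokine, passed the rule in opposite directions, from 4.53 to 1.31 TPM with sevoflurane and from 1.10 to 14.5 with desflurane. Its controls differed, and against the desflurane control the sevoflurane 6 h level was 1.19-fold higher, so that fall rests on the sevoflurane control. Plk2, a relative of Plk3, was the target that fell with desflurane (24.2 to 10.2).

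Among the other growth arrest genes 17 were used, with medians of 0.11 and 0.24. With sevoflurane 3 of 15 rose and 1 fell, and with desflurane 5 of 16 rose and 0 fell. Gadd45b and Foxo1, a forkhead factor of the fasting response, rose with both agents, Foxo1 from 2.45 to 5.27 and from 3.06 to 7.44 TPM. Of the relatives of Btg2, Tob2 passed the rule with sevoflurane (1.60 to 9.04), and Tob1 (9.13 to 28.2) and Btg3 (1.09 to 3.56) with desflurane. Short of the rule, Tob2 was 1.80-fold higher with desflurane and Tob1 1.24-fold higher with sevoflurane. Their shared changes of 1.35 and 0.91 were called (adjusted p = 0.00975 and 0.0495 by limma), and that of Btg3 was not (adjusted p = 0.389). Btg1, a more abundant relative, rose with neither agent (79.7 to 68.7 and 80.1 to 66.8). The transcription factor gene Klf6 rose with desflurane (8.81 to 18.9). Rb1, the retinoblastoma gene, fell with sevoflurane (7.26 to 3.60) and was lower with desflurane (6.81 to 3.53), just short of the rule. Its shared change of −0.82 was called (adjusted p = 0.0452 by limma).

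The apoptosis regulators, 15 of them used, had medians of −0.02 and −0.17. With sevoflurane 1 of 13 rose and 0 fell, and with desflurane 1 of 14 rose and 2 fell. Bcl2l11, which encodes the death promoter Bim, rose with both agents (0.37 to 2.10 and 0.91 to 3.87 TPM), and Fas (3.51 to 1.67), a death receptor, and Bmf (22.4 to 8.98) fell with desflurane. Bmf was also lower with sevoflurane (22.7 to 15.6), short of the rule. Its shared change of −0.87 was called and that of Fas was not (adjusted p = 0.0211 and 0.284 by limma). The 28 proliferation genes had medians of −0.03 and −0.07, and 2 of 17 above the minimum rose and 1 fell with sevoflurane and 2 of 24 rose and 1 fell with desflurane. Ccne1, which encodes cyclin E1 and so promotes entry into S phase, rose with both, from 0.60 to 4.31 and from 0.29 to 6.16 TPM. The others were the cyclin and kinase genes Ccnd1 (10.5 to 31.8, higher) and Cdk6 (3.11 to 1.43, lower) with sevoflurane, and Ccnb2 (1.35 to 3.18, higher) and Ccnd2 (5.14 to 1.20, lower) with desflurane. Ccnd1 was at 31.2 and 19.2 TPM at 0 h and 6 h of desflurane, so sevoflurane 6 h was within 1.02-fold of the desflurane control.

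The exchange of controls, tried on the list genes after their values were seen, kept 6 of 12 calls with sevoflurane and 13 of 17 with desflurane. Tp53i13, Tp53inp1, Plk3, Bcl2l11, Gadd45b and Ccne1 passed the rule with either control under both agents. With sevoflurane Gdf15, Tob2, Foxo1, Rb1, Ccnd1 and Cdk6 no longer passed it, and with desflurane Hipk2, Plk2, Fas and Btg3.

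**Figure D4:**
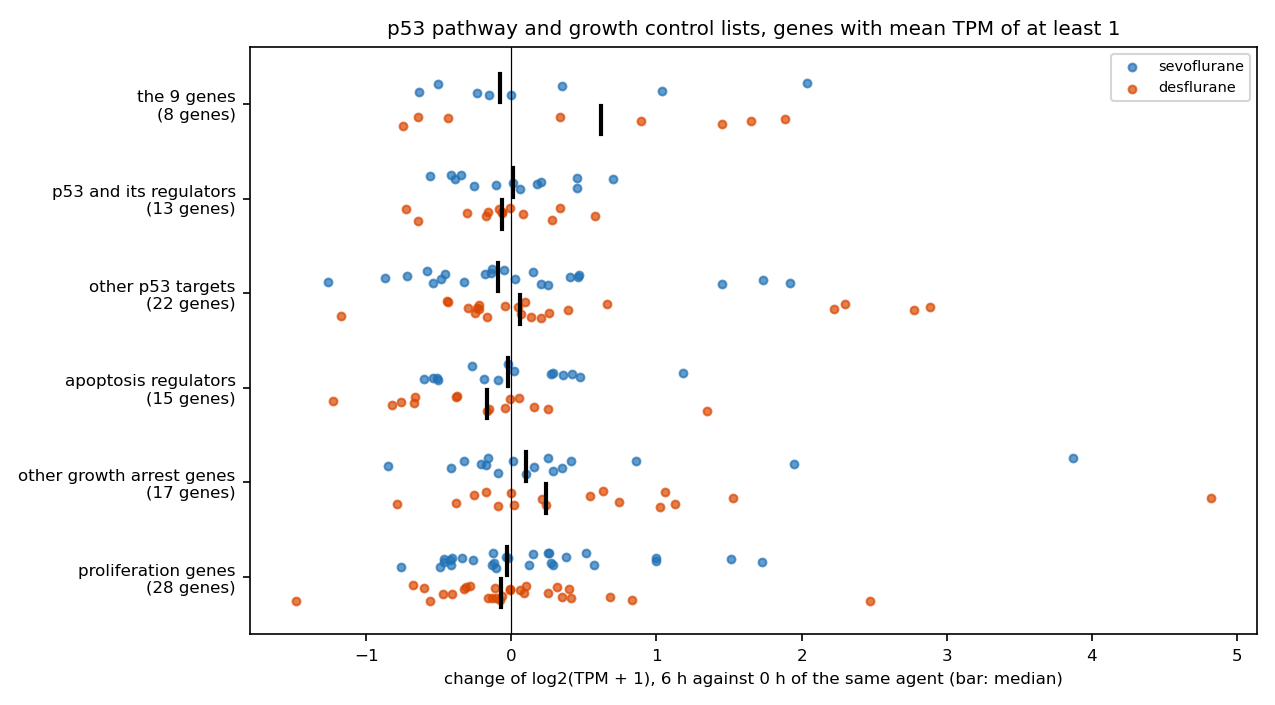
Each point is 1 gene with mean TPM of at least 1, placed by its change of log2(TPM + 1) from 0 h to 6 h with sevoflurane (blue) or desflurane (orange), and the black bars are list medians. The medians of the 5 wider lists lie near 0 (−0.17 to 0.24), that of 8 members with desflurane is 0.62, and the rightmost points are Gadd45b.

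Other genes moved between the same libraries. Of 14 clock genes used, 9 rose and 3 fell with sevoflurane and 9 rose and 1 fell with desflurane, Dbp, a clock output factor, going from 0.40 to 87.9 TPM and from 1.92 to 44.8. Checked against the liver label, the 10 hepatocyte markers had a summed TPM of 101022 to 112667 with no marker past the rule, and 0 of the 9 Kupffer cell and 8 endothelial markers passed it either. The Kupffer cell markers had a median change of −0.26 with sevoflurane (8 of 9 lower) and 0.30 with desflurane (9 of 9 higher). The endothelial medians (−0.04 and 0.18) had the same signs, as did Cdkn1a and Btg2. The hepatocyte, stellate cell, cholangiocyte and red blood cell medians did not. The medians of the 4 lymphocyte markers used were −0.60 and 0.0023. With desflurane these markers went both ways, Cd8a (−1.35) and Ptprc (−0.14) lower and Klrd1 (0.14) and Nkg7 (0.37) higher. Red blood cell markers (6 in the tables, 1 of them below a TPM of 1 throughout) had summed TPM of 472 and 758 at 0 h and 1260 and 1400 at 6 h, and 4 of them rose with sevoflurane and 0 with desflurane. With desflurane those 4 were 1.78-fold to 1.99-fold higher, just short of the rule. The shared change of each was called (adjusted p = 8.36e-05 to 0.0236 by limma). Lymphocyte markers summed to 14.7 and 13.1 at 0 h and to 7.89 and 9.16 at 6 h, with 7 of 11 below a TPM of 1 throughout. Of those above the minimum, 2 of 3 fell with sevoflurane (Cd8a and Nkg7) and 1 of 2 with desflurane (Cd8a). Stellate cell markers, 10 of them, summed to 131 and 141 at 0 h and to 193 and 198 at 6 h, most of it Col3a1 (84.3 and 94.6 at 0 h, 135 and 146 at 6 h). With sevoflurane 1 of them rose (Rgs5, 3.82 to 11.0) and 1 fell (Pdgfrb, 6.04 to 2.41). The part of these cell types in the changes of the 9 genes was not tested, and in a piece of liver a change in the number of cells of a type cannot be told apart from a change in RNA per cell.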

How the data were processed

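Wild type rat liver was kept in RNAlater, RNA was purified with RNeasy Midi columns and ribosomal-depleted stranded libraries were made, per the labels. The submitters' processing notes name HISAT2, SAMtools, StringTie and the rn6 build and give no versions. The 9 genes and all gene lists were chosen with earlier results of these data known.

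The authors deposited 1 StringTie abundance table per library, with TPM, FPKM and coverage (signal, the mean depth per base) columns. In the deposited TPM column the assembled loci alone make up a full TPM total and named genes add 0.766 to 0.789 of it, so the column was treated as a score, which leaves ratios of 1 gene between libraries intact. Entries of 1 symbol were summed, and genes with a span of up to 200 bases were left out, which kept 16999 of 17455 named genes. Coverage and FPKM together gave 3.50 to 5.57 gigabases aligned per library. A TPM of 2 was a depth of 4.67 to 7.21 reads per base. Read counts are not among the columns and no counting interval was computed.

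The rule of size was a TPM above 2 in 1 library and a ratio above 2. The limma test (limma 3.58.1, R 4.3.3) fitted time and agent to log2(TPM + 1) over 8024 genes of mean TPM of at least 2 with a trended prior and Benjamini-Hochberg adjustment at 0.05. It left 1 residual degree of freedom (11.9 with the prior). Its p-values measure how far the changes with the 2 agents disagree, together with a prior taken from all genes tested. A difference in level between the agents that is the same at 0 h and 6 h is taken up by the agent term and is not in that spread. Nothing in the sources says how many animals these libraries hold. Both steps were tested on simulated data. The simulations held independent noise and no difference between the agents or their controls, so they do not show how the steps handle such differences. Beside the 9 genes and Gadd45b, list genes were named where they passed the rule with both agents in 1 direction, and others for a count of 5 or fewer or chosen after their values were seen (Gdf15). Alternatives changed the ratio, pseudocount, filter, scaling, control, agent term or entry used. Promoters came from the RefSeq table (GRCr8). Analysis used Python 3.11.15, pandas 2.3.3 and matplotlib 3.10.9.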

Additional observations from a re-analysis of the deposited data

Results flagged for a closer look

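The changes of Cdkn1a and Btg2 had opposite signs with the 2 agents, the rises with desflurane passing the rule of size and the lower values with sevoflurane not. For Cdkn1a the change was −0.64 with sevoflurane and 1.45 with desflurane, a difference of 2.09. For Btg2 the changes were −0.23 and 1.65, a difference of 1.89. With 1 library a group neither difference was tested, and the sevoflurane change of Btg2 was 0.11, no longer opposite, when taken from the desflurane control.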

How the results depend on the processing

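The rule of size gave 2 members with sevoflurane and 3 with desflurane. With a ratio above 3, 1 member was called with sevoflurane and 0 between the controls. With a ratio above 1.5, 6 were called with desflurane (4 higher and 2 lower) and 5 between the 6 h libraries. With the controls exchanged between agents the sevoflurane count stayed at 2 but turned from 2 higher (Mdm2 and Gadd45a) to 2 lower (Cdkn1a and Gadd45g). The signs of 4 of 18 changes also turned: Btg2 (0.11) and Zmat3 (−0.21) with sevoflurane, and Gadd45g (0.60) and Zmat3 (0.06) with desflurane. No sign turned with another pseudocount, with median-of-ratios scaling or with assembled loci. In the shared test Gadd45a was the 1 member called under each alternative but that with no filter, where 0 of 9 were called, Gadd45a had an adjusted p of 0.056 (limma), 4 members had an unadjusted p under 0.05 and calls over all genes went from 692 to 25 of 13629. Without the agent term its adjusted p was 0.0376 and 488 genes were called, and without the trended prior 440.

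List medians were small and moved with the setting. With the filter raised to a mean TPM of 5, the medians with sevoflurane were 0.13 for p53 and its regulators, 0.15 for other p53 targets, 0.14 for apoptosis regulators, −0.0011 for other growth arrest genes and 0.27 for proliferation genes, and with desflurane −0.38 for apoptosis regulators and 0.23 for other growth arrest genes. With median-of-ratios scaling, which took the median of all genes to near 0, that of p53 and its regulators with desflurane was 0.030, and those of other growth arrest genes were 0.063 and 0.35 with the 2 agents. The latter were 0.14 and 0.26 with a pseudocount of 0.1, and 0.019 and 0.25 against the other control. The cause of these shifts was not tested. The labels give no replicate numbers, and the agent term paired each 6 h library with the control of its agent.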

Other observations

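The genes whose levels over the 4 libraries were most like those of the members were found among 8024 genes, by the distance between profiles of log2(TPM + 1) centred on their means. For Cdkn1a they were Gsta3 and Gstm3l, which encode glutathione S-transferases, and Pex11a, a peroxisome gene, at distances of 0.45, 0.55 and 0.79. Gstm3l was at 12.0, 6.59, 9.32 and 32.4 TPM at 0 h and 6 h of sevoflurane and at 0 h and 6 h of desflurane, respectively. For Btg2 they were Zfp37, G6pc and Gpd1 (0.22, 0.40 and 0.45). G6pc, the last enzyme of glucose release by the liver, was at 360.8, 258, 199 and 651 TPM in the same order.

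For Gadd45a the most similar genes were Rab30, the kinase gene Pim3 and the peroxisomal Pxmp4 (0.26, 0.35 and 0.36), Pim3 being at 12.3, 52.0, 21.6 and 97.4 TPM. For Mdm2 they were Abcg8, a sterol transporter gene, Tom1l2 and Lin7c (0.034, 0.049 and 0.078). With 4 libraries such likeness is a description only.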
